A study of Homo sapiens with 16 samples.

Results

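SW480 cells carrying the hairpin shAjuba2 were compared with SW480 cells carrying a scrambled hairpin, called shScrambled. The comparison uses 5 of the 16 samples of the series, 3 of shAjuba2 and 2 of shScrambled, assigned to their groups by their labels. SW480 is an established human cell line from a primary adenocarcinoma of the colon. Both lines were made with a lentivirus and selected with puromycin, and all lines were used between passages 10 and 18. The hairpin of shAjuba2 targets the non-coding part of the AJUBA transcript, whereas that of shScrambled is a control with no mammalian target. Whether the selected cells of a line were a pool or grew from 1 clone is not given in the sources used here. The other samples of the series were Parental SW480 (n = 2), the hairpin line shAjuba1 aimed at the coding region (n = 3), Ajuba OE, which carries an AJUBA expression construct (n = 3), and Control, which carries that construct with AJUBA removed (n = 3). Parental and Control show how far shScrambled stood from other cells that carry no AJUBA hairpin, and shAjuba1 is compared with shAjuba2 directly.

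Ajuba is a LIM-domain protein of the same family as LIMD1 and WTIP. It sits at adherens junctions and on actin filaments, and it binds LATS kinases of the Hippo pathway, which restrain the transcriptional coactivators YAP and TAZ. It also moves to the nucleus, where it acts as a corepressor with SNAIL proteins. A short hairpin RNA is cut into a small RNA that guides the RNA interference machinery to a matching transcript, so the level of the target transcript is the first thing to read in such a line.

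The 5 libraries held between 36456400 and 50312458 counts on genes. Replicate 2 of shAjuba2 stood apart from the other libraries. Its log2 CPM (counts-per-million, after TMM scaling) correlated across genes with replicates 1 and 3 at r = 0.988 and 0.985, against r = 0.993 between replicates 1 and 3 and 0.994 between the shScrambled pair. Mitochondrially encoded genes took 21.2% of its counts, 13.97% and 11.5% in the other shAjuba2 libraries and 15.4% and 17.2% in shScrambled. In Control and Ajuba OE replicate 2 also held the largest mitochondrial share of its line, 18.5% against 12.4% and 14.1% in Control and 21.2% against 9.66% and 14.9% in Ajuba OE. Results are given with all 5 samples, and counts over gene lists also without shAjuba2 replicate 2. Of 14 colon epithelium markers 8 were above 1 CPM in every library, and their summed level was 4158.9 and 4070.1 CPM in shScrambled and 4376, 2854 and 5307 CPM in shAjuba2. The summed markers of fibroblasts, endothelial cells and leukocytes lay between 2.58 and 37.0 CPM per list and library. In bulk RNA, fewer cells of one kind and less RNA per cell cannot be told apart.

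AJUBA, on chromosome 14 (hg38, chr14:22971177-22982551), was lower in shAjuba2 than in shScrambled in every sample. Its level was 82.2 and 81.4 CPM in shScrambled and 57.1, 67.2 and 55.0 CPM in shAjuba2. The means were 81.8 ± 0.514 CPM (SD, n = 2) and 59.8 ± 6.52 CPM (SD, n = 3), so 73.1% of the control level remained. The groups did not overlap, and replicate 2 was the highest of the 3 shAjuba2 samples. The log2 fold change was -0.46 (SE 0.13, adjusted p = 0.0773) by edgeR's quasi-likelihood test, which missed the threshold of 0.05. Without replicate 2 it was -0.55 with an adjusted p of 0.000481, and with Parental as the control it was -0.60 with an adjusted p of 0.0364. The passing of AJUBA thus rested on which library or control entered the fit, and also on the test and model used. Means were 90.4 CPM in Parental, 92.5 CPM in Control, 49.9 CPM in shAjuba1 and 554 CPM in Ajuba OE. Between shAjuba2 and shAjuba1 the log2 difference of AJUBA was 0.26 (adjusted p = 0.141), which did not pass.

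**Figure D1:**
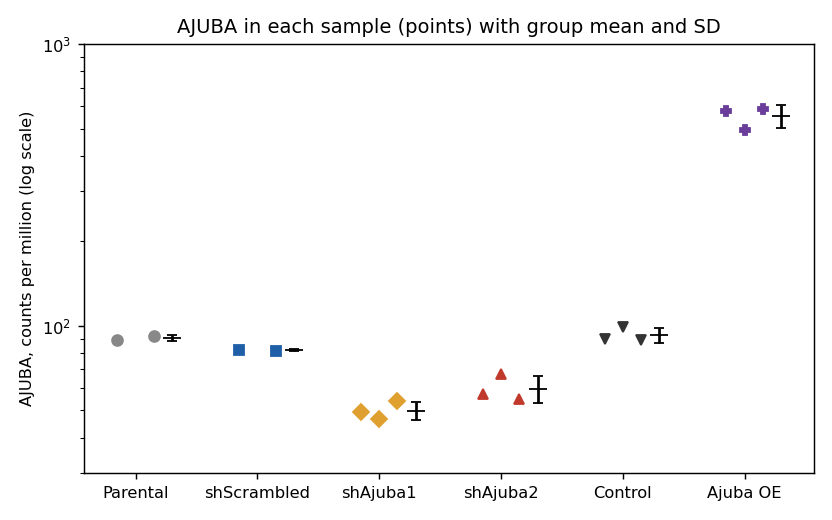
AJUBA level in CPM (vertical log axis) in each of the 16 samples, grouped by line; points are samples, and the black mark with its bar is the mean and SD of the line. The 3 shAjuba2 samples lie between 55.0 and 67.2 CPM, below both shScrambled samples at 81.4 and 82.2 CPM.

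The close relatives of AJUBA did not pass the test with all 5 samples. LIMD1 read 46.1 and 45.6 CPM in shScrambled and 54.1, 61.2 and 48.1 CPM in shAjuba2, a log2 fold change of 0.24 (SE 0.14, adjusted p = 0.312). WTIP read 26.3 and 33.6 CPM and 46.7, 43.3 and 42.2 CPM, with a log2 fold change of 0.55 (SE 0.14, adjusted p = 0.0582) that passed without replicate 2 (adjusted p = 0.00258). Both genes were higher in all 3 shAjuba2 samples than in either shScrambled sample. Among genes measured as proteins in the same study, the receptor tyrosine kinase EGFR read 116 and 129 CPM in shScrambled and 156, 165 and 163 CPM in shAjuba2, a log2 fold change of 0.39 (SE 0.12, adjusted p = 0.0908). The ephrin receptor EPHA2 read 159 and 188 CPM and 248, 306 and 253 CPM, a log2 fold change of 0.63 (SE 0.16, adjusted p = 0.0527). Both were higher in every shAjuba2 sample and passed without replicate 2, at adjusted p = 0.0113 and 0.00198. Against Parental EPHA2 passed with all 3 shAjuba2 samples (log2 fold change 0.65, adjusted p = 0.0396) and EGFR did not (0.15, adjusted p = 0.377). RPS6, a protein of the small ribosomal subunit, read 576 and 529 CPM in shScrambled and 476, 142 and 535 CPM in shAjuba2, where replicate 2 alone was low (log2 fold change -0.53 with it and -0.14 without it, neither of which passed).

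Over the whole transcriptome 22446 genes were tested and 1713 differed between shAjuba2 and shScrambled at an adjusted p under 0.05, which is 7.63% of the genes tested. Of these, 717 were higher in shAjuba2 (3.19% of the genes tested) and 996 were lower (4.44%). They comprised 1347 protein-coding genes and 253 long non-coding RNAs, and their median absolute log2 fold change was 1.09. Without replicate 2 the count was 4983 of 21969 genes (22.7%), 2395 higher (10.9%) and 2588 lower (11.8%). Of the 1713 genes 1708 were called in both fits, all in the same direction, which is 99.7% of the first list and 34.3% of the second. Single libraries moved the count by more than 1.5 times: 223 genes were called without shScrambled replicate 1, 182 without shScrambled replicate 2 and 492 without shAjuba2 replicate 1, where a line may be left with 1 sample that is assumed to vary like the other group. The replicates are not labelled as separate cultures, and the study speaks of technical replicates, so the p-values measure only the spread between these samples.

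**Figure D2:**
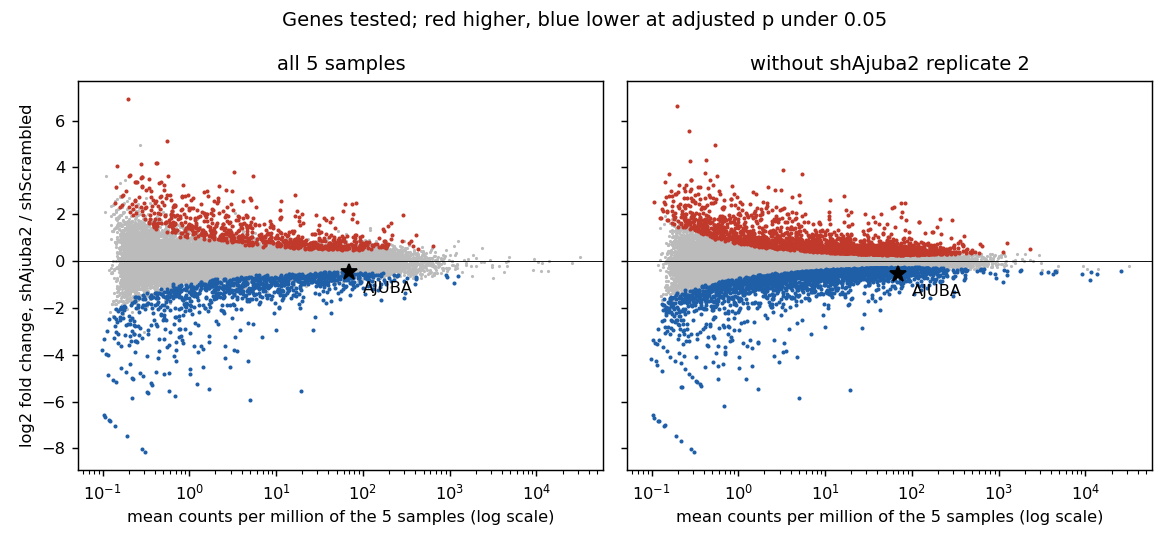
Log2 fold change of shAjuba2 over shScrambled (vertical axis) against the mean CPM of the 5 samples (horizontal log axis) for each gene tested, with all 5 samples on the left and without shAjuba2 replicate 2 on the right; red points are called higher, blue points lower and grey points not called. The coloured cloud grows from 1713 to 4983 genes, and AJUBA (star) passes on the right only.

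With only 2 control samples of 1 line, the choice of control mattered. Against Parental in place of shScrambled 1800 of 22111 genes (8.14%) were called, 4.26% higher and 3.88% lower, and 689 of the 1713 genes were called in the same direction while 12 were called in the opposite one. All 3 shAjuba2 samples lay beyond all 7 Parental, shScrambled and Control samples for 468 of the genes called higher and 501 of those called lower. With the 7 samples fitted as 1 control group 6.71% of genes were called higher and 5.03% lower. Over all genes tested 14.3% lay beyond these 7 samples in either direction. The comparisons with Parental and with shScrambled share the shAjuba2 samples, and their values are given side by side below.

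Among protein-coding genes with a mean of at least 5 CPM that were called with and without replicate 2, the 12 with the largest increases included a regulator of the Hippo pathway, transcription factors and surface proteins. TM4SF18, a tetraspanin-like membrane protein, read 1.00 and 0.416 CPM in shScrambled and 6.98, 7.79 and 10.6 CPM in shAjuba2, a log2 fold change of 3.62 (SE 0.37, adjusted p = 0.00269). AMOTL1, an angiomotin that binds YAP at junctions and is itself a YAP target, read 23.3 and 20.6 CPM in shScrambled and 118, 124 and 127 CPM in shAjuba2. Its 3 shAjuba2 values were close to one another, and the log2 fold change was 2.48 (SE 0.13, adjusted p = 0.00041). In Parental its mean was 51.5 CPM and the log2 fold change against that line was 1.25 (adjusted p = 0.00646). F13A1, the catalytic subunit of coagulation factor XIII, read 22.1 and 19.9 CPM and 121, 105 and 112 CPM, with a log2 fold change of 2.42 (SE 0.14, adjusted p = 0.000417). ADGRF1, an adhesion G protein-coupled receptor, read 17.2 and 17.1 CPM and 78.8, 102 and 94.4 CPM, with a log2 fold change of 2.41 (SE 0.16, adjusted p = 0.000603). Both F13A1 and ADGRF1 stayed above every control sample of the series, with log2 fold changes of 2.23 and 2.03 against Parental.

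Several of the other genes that rose were transcription factors or cytoskeletal and signalling proteins. MITF, a helix-loop-helix factor of melanocytes and other lineages, read 7.38 and 6.84 CPM in shScrambled and 31.0, 24.6 and 29.5 CPM in shAjuba2, a log2 fold change of 1.99 (SE 0.16, adjusted p = 0.00104). ISL1, a LIM-homeodomain factor, rose by 2.19 on the log2 scale, and AFF3, a nuclear factor of the super elongation family, by 2.13. FSCN1, which bundles actin in filopodia, read 19.1 and 19.1 CPM in shScrambled and 73.4, 72.4 and 109 CPM in shAjuba2, a log2 fold change of 2.14 (SE 0.21, adjusted p = 0.00202). ZAP70, a tyrosine kinase known from T cells, read 94.7 and 116 CPM and 347, 533 and 366 CPM, with a log2 fold change of 1.98 (SE 0.23, adjusted p = 0.0038). The proteoglycan gene ESM1 rose by 1.99, TCIM by 2.55 and the glutathione-handling enzyme GGT5 by 2.31, all with adjusted p-values between 0.00074 and 0.00659. For 5 of the 12 the log2 fold change against Parental did not pass: TCIM (0.43), GGT5 (0.74), ISL1 (0.52), FSCN1 (0.75) and ZAP70 (0.77), although all 12 lay above all 7 control samples in each shAjuba2 library.

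The 12 largest decreases under the same limits, which leave out weaker genes with larger folds, included adhesion receptors, guidance receptors and genes of the intestinal epithelium. PCDH19, a protocadherin on the X chromosome, read 13.1 and 11.6 CPM in shScrambled and 0.244, 0.176 and 0.178 CPM in shAjuba2, a log2 fold change of -5.94 (SE 0.21, adjusted p = 0.000115). Its level differed widely among lines that carry no AJUBA hairpin, with 4.54 CPM in Parental and 0.277 CPM in Control, the latter as low as in shAjuba2. GPX2, the glutathione peroxidase of the gut epithelium, read 15.8 and 13.8 CPM in shScrambled and 1.65, 1.19 and 1.80 CPM in shAjuba2, a log2 fold change of -3.26 (SE 0.20, adjusted p = 0.000477). VIL1, the microvillus protein villin, read 53.6 and 56.2 CPM and 12.2, 8.69 and 10.8 CPM, with a log2 fold change of -2.38 (SE 0.16, adjusted p = 0.000603). It fell against Parental as well, by 2.01 (adjusted p = 0.00299), and its exons overlap USP37 on the other strand. ITGB8, an integrin chain that activates TGF-beta, read 50.5 and 60.9 CPM and 8.65, 6.29 and 6.998 CPM, with a log2 fold change of -2.94 (SE 0.17, adjusted p = 0.000417). Against Parental, whose mean was 14.8 CPM, that of ITGB8 was -1.02 (adjusted p = 0.0199).

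Of the remaining decreases, ROBO1, the receptor of SLIT guidance proteins, read 21.4 and 20.4 CPM in shScrambled and 2.91, 2.29 and 3.03 CPM in shAjuba2, a log2 fold change of -2.93 (SE 0.16, adjusted p = 0.000412). Control read 3.22 CPM, close to the shAjuba2 samples. MACC1, which raises expression of the MET receptor in colon cancer, read 20.2 and 18.8 CPM and 4.68, 4.63 and 5.19 CPM, with a log2 fold change of -2.02 (SE 0.13, adjusted p = 0.000621). TNC, the matrix glycoprotein tenascin C, read 20.3 and 18.9 CPM and 5.72, 4.68 and 4.96 CPM, with a log2 fold change of -1.94 (SE 0.14, adjusted p = 0.000921), whereas against Parental (7.06 CPM) it was -0.47 and did not pass. MLPH, which links melanosomes to myosin, fell from 30.4 and 34.9 CPM to 9.81, 9.88 and 7.99 CPM (log2 fold change -1.83), but Parental read 8.32 CPM and the sign turned to 0.15 against that line. EPDR1, RGCC, SYT13 and MGAT3 fell by 2.22, 1.99, 2.70 and 1.81 on the log2 scale, each also past the threshold against Parental. In all, 17 of the 24 genes passed in the same direction against Parental, and 21 of the 24 lay beyond all 7 control samples. Over the 1713 called genes 689 passed likewise, and 468 higher and 501 lower genes lay beyond all 7. These counts reuse the shAjuba2 samples that ranked the genes, and the 7 include shScrambled, so they are not independent of the choice. Exons of 9 of the 24 overlap another counted gene, 2 on the same strand and 7 on the other, and how strand was used in counting is not given in the sources used here.

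**Figure D3:**
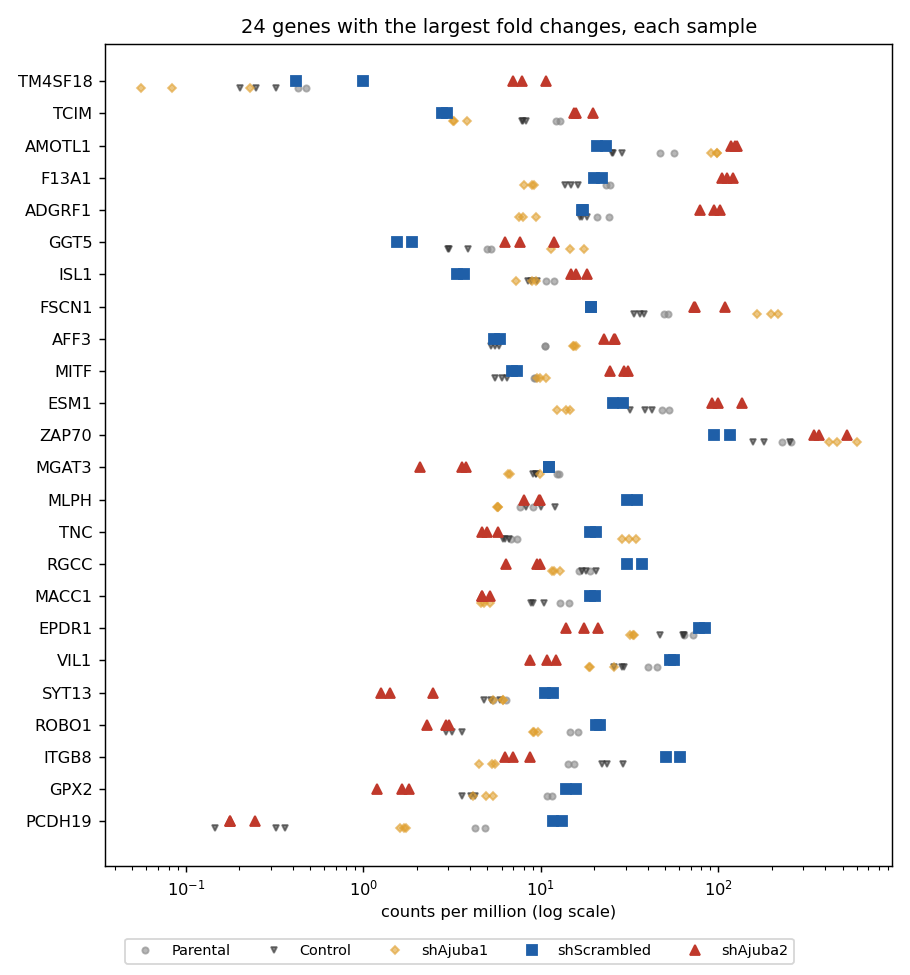
Level in CPM (horizontal log axis) of the 24 genes with the largest fold changes, 12 higher and 12 lower, in each sample; large symbols are shScrambled (squares) and shAjuba2 (triangles), and small symbols just beneath are Parental, Control and shAjuba1. All large triangles are clear of all squares, which the choice of the genes required. For PCDH19, ROBO1 and MLPH the Control or Parental samples lie at the level of shAjuba2.

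Gene lists are described by how many of their tested members passed, beside 3.19% higher and 4.44% lower over all genes with all 5 samples, and 10.9% and 11.8% without replicate 2. Of 7 Ajuba and zyxin LIM proteins tested 1 fell (14.3%), and 2 rose and 2 fell without replicate 2, with a median log2 fold change of 0.24 beside -0.0050 over all genes tested. The one that fell was LPP, a zyxin relative at focal adhesions, which read 193 and 178 CPM in shScrambled and 130.2, 114 and 122 CPM in shAjuba2, with a log2 fold change of -0.61 (SE 0.12, adjusted p = 0.0278). Among 20 Hippo kinases, YAP, TAZ and TEAD factors 1 rose (5%), AMOTL1 described above, and 3 rose and 2 fell without replicate 2 (median -0.0071 with all 5 samples). Of 24 targets of YAP and TAZ 3 rose and 3 fell (12.5% each, median 0.19), and without replicate 2 these counts were 7 and 7. F3, the tissue factor that starts coagulation, read 20.9 and 21.7 CPM in shScrambled and 33.5, 35.3 and 36.2 CPM in shAjuba2, a log2 fold change of 0.71 (SE 0.12, adjusted p = 0.0141). IGFBP3, which binds insulin-like growth factors, moved the other way and read 115 and 116 CPM and 46.4, 33.4 and 47.0 CPM, with a log2 fold change of -1.46 (SE 0.16, adjusted p = 0.00325). CCN2, a standard reporter of YAP activity, read 30.4 and 29.96 CPM and 20.6, 19.3 and 21.9 CPM, with a log2 fold change of -0.56 (SE 0.12, adjusted p = 0.0329). Members of the list thus passed in both directions.

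Wnt genes passed in both directions. Of 21 targets of beta-catenin 3 rose and 2 fell (14.3% and 9.52%, median 0.073). Without replicate 2, 8 rose (38.1%) and 2 fell, and DESeq2 on all 5 samples called 8 and 2. Of 29 ligands, receptors and secreted inhibitors 1 rose and 3 fell (median 0.057), against 6 and 4 without replicate 2. LGR5, the R-spondin receptor that marks intestinal stem cells, read 1.41 and 1.65 CPM in shScrambled and 0.102, 0.132 and 0.0396 CPM in shAjuba2, a log2 fold change of -4.05 (SE 0.37, adjusted p = 0.00157). SOX4, a transcription factor of the SOX family, rose from 99.2 and 86.4 CPM to 216, 235 and 230.4 CPM, with a log2 fold change of 1.29 (SE 0.13, adjusted p = 0.00272). The Wnt-inactivating enzyme NOTUM and the secreted antagonist SFRP5 fell by 0.85 and 1.39, and the ligand WNT10A by 0.74. ROR1, a receptor of WNT5A, rose by 0.72. Of 17 colon cancer stem cell markers 1 rose and 3 fell, against 4 and 6 without replicate 2. SOX2, a pluripotency factor, read 3.59 and 3.09 CPM in shScrambled and 8.93, 9.77 and 11.3 CPM in shAjuba2, while DCLK1, a tuft cell kinase, read 551 and 522 CPM and 309.9, 302 and 346 CPM. The log2 fold changes were 1.58 and -0.76, and that of DCLK1 did not pass against Parental (-0.20). ALDH1A3, a retinaldehyde dehydrogenase, was the 1 of 17 aldehyde dehydrogenases that passed, at 488 and 499 CPM in shScrambled and 176, 136 and 182 CPM in shAjuba2 with a log2 fold change of -1.59 (SE 0.16, adjusted p = 0.00212), and without replicate 2, 1 of the family rose and 5 fell.

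Genes of the intestinal epithelium and keratins that passed were mostly lower. Of 37 genes of intestinal epithelial differentiation 18 passed the filter on low counts and 8 of these fell, which is 44.4% beside 4.44% of all genes tested. None rose by edgeR's test, 2 at an unadjusted p under 0.05 and 1 by DESeq2, and the median log2 fold change was -0.41. Without replicate 2, 2 rose and 8 fell. Among those that fell beside VIL1 were the transcription factor HNF4A, the adhesion molecule CEACAM1, the trefoil peptides TFF2 and TFF3, and the granins CHGA and CHGB of enteroendocrine cells. HNF4A read 39.3 and 39.4 CPM in shScrambled and 29.4, 27.8 and 27.0 CPM in shAjuba2, with a log2 fold change of -0.49 (SE 0.11, adjusted p = 0.0409). CHGA read 11.9 and 10.4 CPM and 5.15, 4.02 and 5.29 CPM, with a log2 fold change of -1.21 (SE 0.17, adjusted p = 0.00764). TFF3 held 15 counts in each shScrambled library and none in shAjuba2, which is at least 16.97-fold lower against a floor of 3 counts over the group. It passed the filter through shScrambled alone, so that it could be called lower only, and it is among the 8. Most of these genes stood at low levels. Against Parental 6 of the list fell and 2 rose, with a median of -0.23. Keratins gave 5 lower and 1 higher of 15 (33.3% and 6.67%), with a median of -0.65, and 9 lower (60%) and 1 higher without replicate 2. Their summed level was 6376 and 6275 CPM in shScrambled and 5959, 3864 and 6871 CPM in shAjuba2. KRT8 read 1961 and 1865 CPM in shScrambled and 2179, 1457 and 2620 CPM in shAjuba2. It did not pass (log2 fold change 0.12), and neither did KRT18 (0.076). KRT13, a keratin of stratified epithelium, read 165 and 178 CPM in shScrambled and 66.7, 61.2 and 64.4 CPM in shAjuba2, a log2 fold change of -1.42 (SE 0.11, adjusted p = 0.00105). KRT14 was at 19 and 22 counts in shScrambled and at 0 in all 3 shAjuba2 libraries, at least 22.9-fold lower. Like TFF3 it passed the filter through shScrambled alone, and it is among the 5 keratins called lower.

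**Figure D4:**
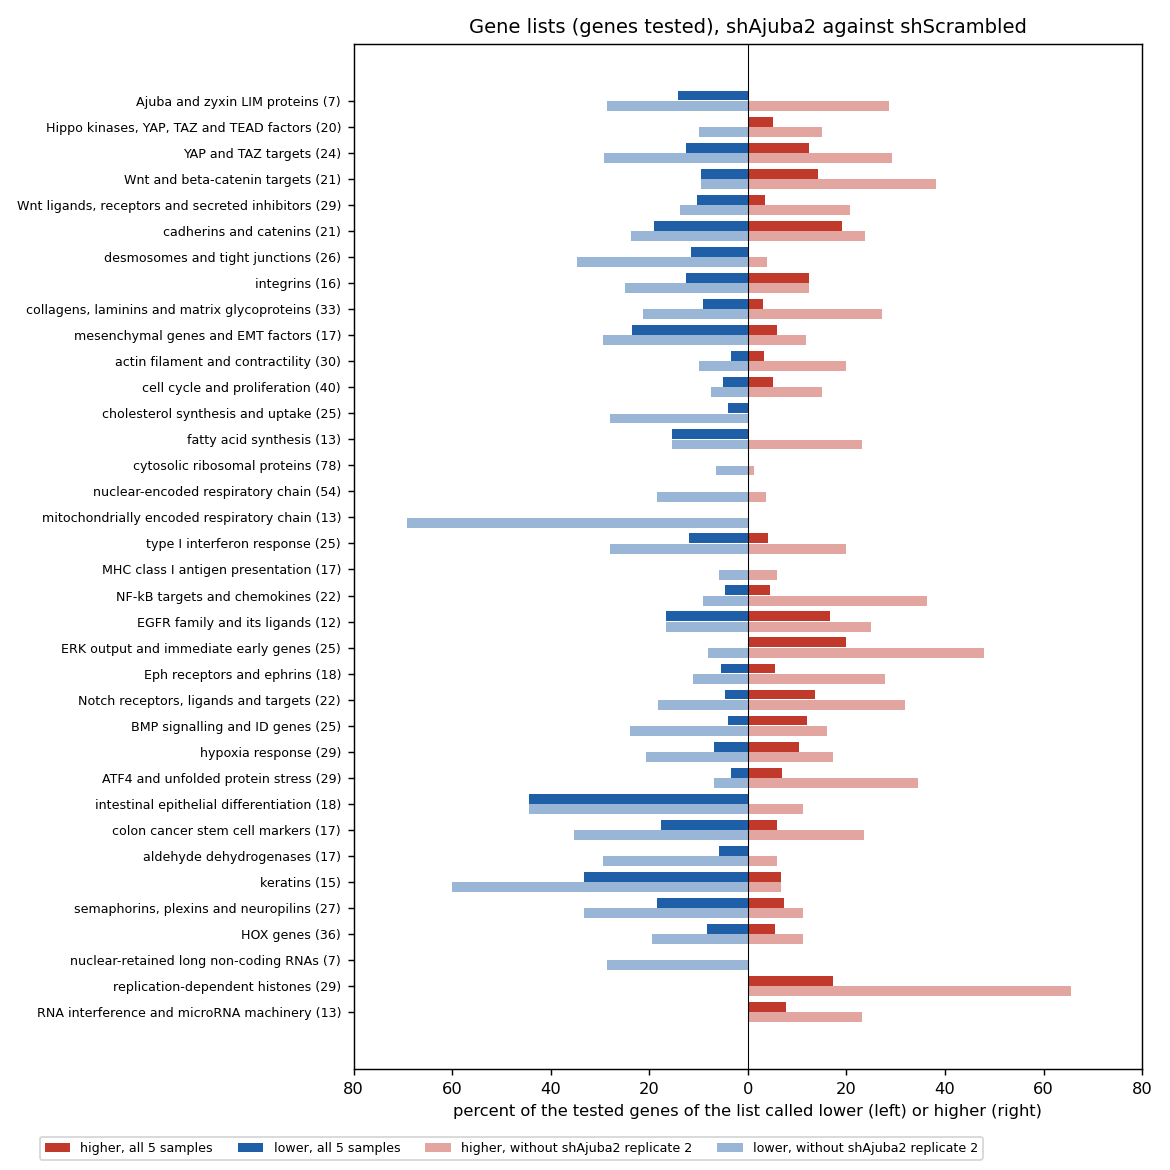
Percent of the tested genes of each gene list that were called lower (blue, left) or higher (red, right) in shAjuba2; dark bars are all 5 samples and pale bars the fit without shAjuba2 replicate 2, and the number of genes tested is in brackets. Intestinal differentiation has 44.4% lower with all 5 samples, and histones reach 65.5% higher without replicate 2.

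Cadherins and integrins passed in both directions. Of 21 cadherins and catenins 4 rose and 4 fell (19% each), and of 16 integrins 2 rose and 2 fell (12.5% each). Without replicate 2 the counts were 5 and 5 and, for integrins, 2 and 4. ITGA1, the collagen-binding alpha-1 chain, read 95.4 and 92.2 CPM in shScrambled and 249.7, 273 and 268 CPM in shAjuba2, a log2 fold change of 1.49 (SE 0.13, adjusted p = 0.00133). It rose while ITGB8 and the epithelial chain ITGB6 (-1.03) fell. Desmosome and tight junction genes gave 3 lower of 26 (11.5%, median -0.27), and 1 higher and 9 lower (34.6%) without replicate 2. The desmocollin DSC2 read 3.30 and 3.73 CPM and 1.16, 1.43 and 1.21 CPM with a log2 fold change of -1.48 (SE 0.19, adjusted p = 0.00573), and the claudin CLDN12 fell by 0.68. Among 33 collagens, laminins and matrix glycoproteins 1 rose and 3 fell by edgeR's test (3.03% and 9.09%, median 0.25), while 9 rose and 7 fell without replicate 2. With all 5 samples DESeq2 called 5 higher and 3 lower, and 12 were higher and 6 lower at an unadjusted p under 0.05. Which direction held more calls thus depended on the test and threshold as well as on that library. Those that fell by edgeR's test with all 5 samples included the basement membrane collagen COL4A1 (-1.50), which gave -0.10 against Parental. Mesenchymal genes and factors of the epithelial-mesenchymal transition gave 1 higher and 4 lower of 17 (5.88% and 23.5%, median -0.27), and 2 and 5 without replicate 2. TGFBI, a matrix protein induced by TGF-beta, read 91.5 and 93.1 CPM in shScrambled and 44.7, 39.4 and 45.1 CPM in shAjuba2, with a log2 fold change of -1.11 (SE 0.12, adjusted p = 0.00272). The repressor ZEB1 went the other way and rose by 0.73. Of 30 actin and contractility genes only VIL1 and FSCN1, both described above, passed with all 5 samples, against 6 higher and 3 lower without replicate 2.

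Downstream of the kinase ERK the genes that passed were higher in shAjuba2. Of 25 ERK output and immediate early genes 5 rose and 0 fell by edgeR's test (20% higher beside 3.19% of all genes), and 12 rose (48% beside 10.9%) and 2 fell without replicate 2. At an unadjusted p under 0.05, 12 were higher and 2 lower, while DESeq2 called 8 higher and 0 lower. The early response factors FOS and FOSB read 28.7 and 35.2 CPM and 7.03 and 8.80 CPM in shScrambled, against 47.6, 52.7 and 50.4 CPM and 14.6, 21.3 and 16.1 CPM in shAjuba2. Their log2 fold changes were 0.65 (SE 0.13, adjusted p = 0.0306) and 1.12 (SE 0.21, adjusted p = 0.0201). SPRY2, a feedback inhibitor of receptor tyrosine kinases, rose by 0.65. All 3 also passed against Parental, where 9 of the list were higher. In the EGFR family 2 of 12 genes rose and 2 fell, against 3 and 2 without replicate 2. The ligand NRG1 read 1.35 and 0.952 CPM in shScrambled and 7.67, 6.22 and 8.62 CPM in shAjuba2, a log2 fold change of 2.71 (SE 0.24, adjusted p = 0.00144), and its receptor ERBB3 read 53.3 and 60.9 CPM and 36.8, 31.9 and 29.2 CPM, a log2 fold change of -0.81 (SE 0.14, adjusted p = 0.016). The EGFR ligand EREG rose by 0.91, whereas TGFA fell by 0.70.

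Among other signalling families, Notch genes gave 3 higher and 1 lower of 22 (13.6% and 4.55%), and 7 and 4 without replicate 2. The Notch ligand JAG1 read 14.998 and 15.96 CPM in shScrambled and 47.1, 56.7 and 51.4 CPM in shAjuba2, a log2 fold change of 1.73 (SE 0.14, adjusted p = 0.00105), and Parental stood between at 34.8 CPM. The receptor NOTCH2 fell by 0.67. BMP genes gave 3 higher and 1 lower of 25, and 4 and 6 without replicate 2, among them the ligand BMP4 at 235 and 242 CPM in shScrambled and 436, 446 and 424 CPM in shAjuba2 and its antagonist GREM1. Their log2 fold changes were 0.86 (SE 0.13, adjusted p = 0.00931) and 1.14. Eph receptors and ephrins gave 1 higher (EFNB2, 0.81) and 1 lower (EFNA5, -1.41) of 18, and 5 and 2 without replicate 2. Semaphorins, plexins and neuropilins gave 2 higher and 5 lower of 27 (7.41% and 18.5%), and 3 and 9 without replicate 2. The secreted semaphorin SEMA3A, an axon guidance cue, read 34.8 and 33.4 CPM in shScrambled and 12.5, 9.57 and 9.83 CPM in shAjuba2, a log2 fold change of -1.69 (SE 0.15, adjusted p = 0.00144), and SEMA5A rose by 1.53. Of 36 HOX genes 2 rose and 3 fell, the latter being HOXA10, HOXA11 and HOXA13, against 4 and 7 without replicate 2.

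Cell cycle genes were called at about the share of all genes. Of 40 tested 2 rose and 2 fell (5% each, beside 3.19% and 4.44%), with a median of -0.038, and 6 rose and 3 fell without replicate 2. The cyclin CCND2 read 34.6 and 33.1 CPM in shScrambled and 12.5, 12.5 and 10.5 CPM in shAjuba2, a log2 fold change of -1.52 (SE 0.13, adjusted p = 0.00144), and its partner kinase CDK6 read 127 and 126 CPM and 283, 268 and 283 CPM, a log2 fold change of 1.13 (SE 0.12, adjusted p = 0.00301). RRM2, a subunit of ribonucleotide reductase, fell by 0.97, and the phosphatase CDC25A rose by 0.59. Replication-dependent histone genes, whose transcripts mostly lack a poly(A) tail, gave 5 higher of 29 (17.2%, median 0.71), and 19 higher (65.5%) without replicate 2. H2BC11 read 11.8 and 11.6 CPM in shScrambled and 21.0, 19.5 and 27.3 CPM in shAjuba2, a log2 fold change of 0.95 (SE 0.17, adjusted p = 0.0192). Parental and Control stood higher, at 27.2 CPM and 30.6 CPM, and against Parental the log2 fold change was -0.27. For H2AC6 the values were 0.86 against shScrambled and -0.46 against Parental, and against Parental 1 histone gene was called lower (list median 0.087).

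Of metabolic and stress lists, cholesterol genes fell at about the share of all genes with all 5 samples. Of 25 genes of cholesterol synthesis and uptake 1 fell with all 5 samples (4% beside 4.44%) and 7 fell without replicate 2 (28% beside 11.8%). Their median was -0.38 with all 5 samples and -0.19 without replicate 2. Summed, they read 2609 and 2613 CPM in shScrambled and 2503, 1804 and 2166 CPM in shAjuba2, with replicate 2 the lowest. At an unadjusted p under 0.05, 10 cholesterol genes were lower, and DESeq2 called 3. HMGCS1, the synthase that feeds the mevalonate pathway, read 171 and 168 CPM in shScrambled and 125, 94.8 and 103 CPM in shAjuba2, a log2 fold change of -0.66 (SE 0.15, adjusted p = 0.0366). Fatty acid synthesis gave 2 lower of 13, the malic enzyme ME1 (-1.02) and the elongase ELOVL6 (-0.63), and 3 higher and 2 lower without replicate 2. Hypoxia genes gave 3 higher and 2 lower of 29 (10.3% and 6.9%, and 5 and 6 without replicate 2), with VEGFA (0.73) among the first and the glucose transporter SLC2A3 (-0.66) among the second. The ATF4 and unfolded protein list gave 2 higher and 1 lower of 29 (6.9% and 3.45%, and 10 and 2 without replicate 2), with DDIT3, the stress factor CHOP, at 0.81. Interferon genes gave 1 higher (IRF7, 0.78) and 3 lower of 25 (4% and 12%), and 5 and 7 without replicate 2. OAS1, which senses double-stranded RNA, fell by 0.77 against shScrambled and read 0.011 against Parental. Targets of NF-kB gave 1 higher (TNFAIP2, 0.75) and 1 lower (the chemokine CCL2) of 22. Without replicate 2, 8 of these were higher (36.4%) and 2 lower, and DESeq2 on all 5 samples called 4 higher and 1 lower. Of 13 genes of the RNA interference machinery 1 rose, TNRC6C (0.50), and 3 rose without replicate 2.

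No gene of antigen presentation by MHC class I (17 tested), of the cytosolic ribosome (78), of the nuclear-encoded (54) or mitochondrially encoded respiratory chain (13) or among nuclear-retained long non-coding RNAs (7) passed edgeR's test with all 5 samples. At an unadjusted p under 0.05 the genes higher and lower were 1 and 1, 0 and 2, 1 and 8, 0 and 1, and 0 and 1, in that order. DESeq2 called 1 ribosomal gene lower, 1 nuclear-encoded respiratory gene higher and 1 mitochondrial gene lower. The ribosomal and respiratory lists moved with replicate 2. The summed ribosomal protein genes read 33714 and 30664 CPM in shScrambled and 26640.0, 13474 and 32364 CPM in shAjuba2, so that replicate 2 alone lay far below. The list median of its log2 difference from replicates 1 and 3 was -1.14 for ribosomal genes, -0.78 for nuclear-encoded and 0.71 for mitochondrially encoded respiratory genes, against 0.016 over all genes tested. Without replicate 2, 9 mitochondrially encoded (69.2%), 10 nuclear-encoded respiratory (18.5%) and 5 ribosomal genes (6.41%) were called lower, beside 11.8% of all genes. In that fit 2 nuclear-encoded respiratory genes (3.7%) and 1 ribosomal gene (1.28%) were called higher, beside 10.9%. The part of RNA quality in this was not tested.

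Replicate 2 departed from its line along exonic length, here the merged length of all annotated exons of a gene. This length can exceed that of any single transcript. Over 10916 protein-coding genes with a mean of at least 5 CPM, 274 were at least 1 log2 unit lower in replicate 2 than in the mean of replicates 1 and 3, and 1 was at least 1 log2 unit higher. The median departure was -0.71 for 95 genes with up to 1000 exonic bases and -0.60 for 610 genes with 1000 to 2000. It was -0.29 for 2536 genes with 2000 to 4000 bases, -0.08 for 4662 with 4000 to 8000 and -0.03 for 3013 longer ones. Among the genes lowest in it were ROMO1, RPL41, S100A4 and RPS6, the first 3 with 702, 1108 and 946 exonic bases and RPS6 with 2696. RPS6 was also lowest in replicate 2 of Control and of Ajuba OE, at 275 and 352 CPM. S100A4, a calcium-binding protein, read 476 and 438 CPM in shScrambled and 427, 118 and 418 CPM in shAjuba2. The highest were CPA4, MT-ND2, PRR22, RTEL1-TNFRSF6B and MT-CO3, of which MT-ND2 read 4108 and 4758 CPM in shScrambled and 3958, 7422 and 3673 CPM in shAjuba2.

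Leaving replicate 2 out brought in 3275 genes, and those named here were genes at which shScrambled was itself low. COX7C, a subunit of cytochrome c oxidase, read 30.2 and 24.8 CPM in shScrambled and 81.2, 36.0 and 86.0 CPM in shAjuba2. Its log2 fold change was 1.29 with all 5 samples (adjusted p = 0.0652) and 1.60 without replicate 2 (adjusted p = 5.30e-08). Parental and Control read 122 CPM and 82.7 CPM, the level of shAjuba2 replicates 1 and 3 or above it. ARPC3, a subunit of the actin-nucleating Arp2/3 complex, read 38.2 and 34.2 CPM in shScrambled and 94.7, 44.3 and 105 CPM in shAjuba2, with 114 CPM in Parental and 99.6 CPM in Control. The linker histone H1-2, the troponin TNNC1 and TPD52L1 passed in the same way, with log2 fold changes without replicate 2 of 1.17, 1.14 and 1.04. With all 5 samples against Parental the log2 fold changes of COX7C, ARPC3, H1-2, TNNC1 and TPD52L1 were -0.85, -0.50, -0.48, -0.83 and -0.37, none past the threshold.

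The hairpin lines were then compared directly. Between shAjuba2 and shAjuba1, 4232 of 21600 genes (19.6%) differed at an adjusted p under 0.05, 2187 higher (10.1%) and 2045 lower (9.47%) in shAjuba2, whereas AJUBA did not pass. Without shAjuba1 replicate 1, 2 or 3 the counts were 2177, 2415 and 2428, and without shAjuba2 replicate 1 the count was 2600. Of the 24 genes with the largest changes against shScrambled, 20 also differed between the hairpin lines. The 24 were chosen by the same shAjuba2 samples, so this count is not independent of the choice. F13A1 averaged 113 ± 8.23 CPM in shAjuba2 and 8.71 ± 0.571 CPM in shAjuba1 (SD, n = 3 each), a log2 difference of 3.69 (adjusted p = 6.42e-07). The difference was -2.61 for TNC (adjusted p = 7.07e-06), which was lower than shScrambled in shAjuba2 and higher in shAjuba1. MACC1 averaged 4.84 CPM in shAjuba2 and 4.83 CPM in shAjuba1, and ITGB8 7.31 and 5.10 CPM, with log2 differences of 0.0023 (SE 0.14) and 0.52 (SE 0.17) that did not pass. AMOTL1 was high in both, at 123 and 95.6 CPM, and differed between them by 0.36 (adjusted p = 0.0314).

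Some genes that changed lay side by side in the genome. The following runs were chosen after the values were seen. On chromosome 19, 5.68% of 1126 protein-coding genes tested were called higher and 2.22% lower (median log2 fold change 0.16), beside 3.66% and 5.47% over all protein-coding genes tested. Without shAjuba2 replicate 2, 178 runs of at least 3 neighbouring protein-coding genes were called in 1 direction, 75 higher and 103 lower. With all 5 samples there were 25 such runs, 4 higher and 21 lower, and 2 of them held 6 genes. How many runs would arise without regard to position was not tested. On chromosome 7 (hg38, chr7:27170605-27844564) HOXA10, HOXA11, HOXA13, EVX1, HIBADH and TAX1BP1 were all lower. HIBADH, an enzyme of valine breakdown, read 53.2 and 51.5 CPM in shScrambled and 27.5, 16.99 and 28.5 CPM in shAjuba2, a log2 fold change of -1.11 (SE 0.21, adjusted p = 0.0225). Against Parental the 6 log2 fold changes ran from -1.20 to -0.37, and that of TAX1BP1 (-0.62) alone passed. On chromosome 19 (chr19:43007656-43363172) PSG11, PSG2, PSG5, PSG4, PSG9 and CD177 were higher. The pregnancy-specific glycoprotein genes of this run are near-identical copies whose reads may be split between them, so their single values are uncertain. PSG9 read 2.49 and 1.76 CPM in shScrambled and 8.41, 6.99 and 7.47 CPM in shAjuba2, and Parental read 6.85 CPM (log2 fold change 1.85 against shScrambled and 0.15 against Parental). The sign turned against Parental for PSG11 (-0.33), PSG2 (-0.43), PSG5 (-0.41) and PSG4 (-0.039), whereas CD177 passed there too (1.32, adjusted p = 0.032).

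A further stretch of chromosome 7 held 3 of the semaphorins that fell. Without replicate 2, CD36, SEMA3C, CACNA2D1, PCLO, SEMA3A and SEMA3D were called lower in a row, and all but PCLO were called with all 5 samples too. SEMA3D, a secreted guidance cue, read 6.78 and 7.04 CPM in shScrambled and 0.305, 0.176 and 0.396 CPM in shAjuba2, a log2 fold change of -4.54 (SE 0.26, adjusted p = 0.000417). SEMA3C read 2.95 and 3.59 CPM and 0.285, 0.221 and 0.218 CPM, with a log2 fold change of -3.75 (SE 0.24, adjusted p = 0.000596). CACNA2D1, an auxiliary subunit of calcium channels, read 1.89 and 1.73 CPM and 0.244, 0.132 and 0.139 CPM, with a log2 fold change of -3.37 (SE 0.30, adjusted p = 0.00144). All 3 fell against Parental too, by 4.57, 3.96 and 2.64. Control, which carries no AJUBA hairpin, was as low as shAjuba2, with 0.285, 0.278 and 0.145 CPM, and shAjuba1 lay between at 2.89, 0.993 and 0.595 CPM. Ajuba OE was the lowest line, at 0.065, 0.010 and 0.014 CPM. The low level of these genes was thus also found in a line with no AJUBA hairpin.

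**Figure D5:**
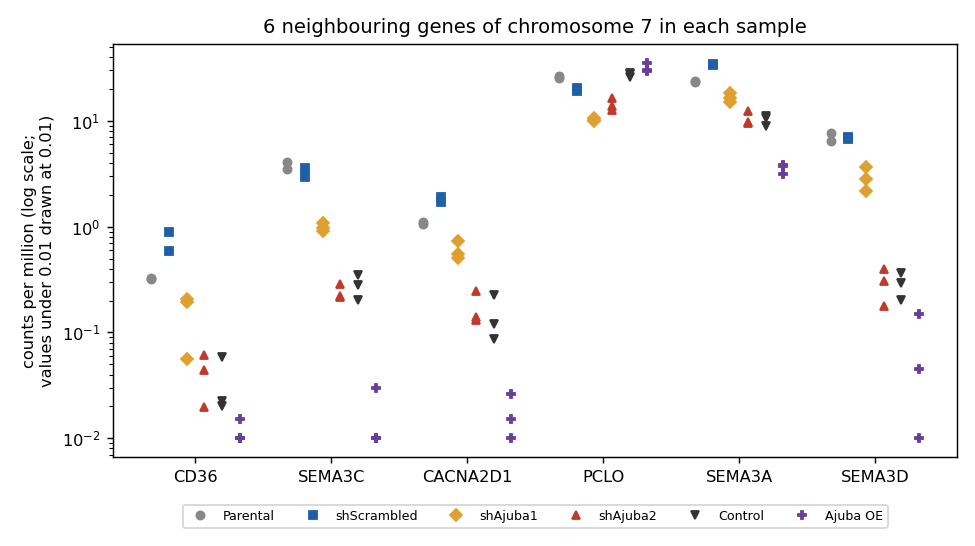
Level in CPM (vertical log axis, values under 0.01 drawn at 0.01) of 6 neighbouring genes of chromosome 7 in each of the 16 samples, with 1 symbol and colour per line. For SEMA3C, CACNA2D1 and SEMA3D the shAjuba2 and Control samples lie together, far below the Parental and shScrambled samples, and the Ajuba OE samples lie lower still.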

How the data were processed

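RNA-seq of 16 SW480 samples was used, 5 of them in the main comparison. The authors deposited raw counts per gene without normalization. According to the labels and methods, stranded mRNA libraries were sequenced in pairs, aligned to GRCh38 with HISAT2 and counted with featureCounts, and the strand option, annotation release and versions are not given in the sources used here. Samples were grouped by their labels. Of 66023 genes in the counts table, 56434 were found in GENCODE 44, which gave symbols and positions. Total counts of the 5 samples ranged from 36456400 to 50312458, which limits low counts only, and floors cover counting error only.

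Counts were tested with edgeR 4.0.16 in R 4.3.3 (filterByExpr, TMM, two-sided quasi-likelihood test, Benjamini-Hochberg adjusted p under 0.05), and each SE is the size of the log2 fold change over the root of its F statistic. CPM used TMM factors over all 16 samples, and log2 CPM used a prior count of 2. The steps were checked on simulated data. Alternatives left out each sample, or used library size alone, DESeq2 1.42.0, limma 3.58.1 voom with sample quality weights, other filters, other controls, all 16 samples or a replicate block. The fits with Parental without replicate 2 and without mitochondrial counts were added after the data were seen. Named genes were AJUBA, LIMD1, WTIP, EGFR, EPHA2 and RPS6, the 12 largest changes per direction among protein-coding genes of at least 5 CPM called with and without replicate 2, up to 4 members per list, 6 genes called only without replicate 2, and the 5 highest and 5 lowest genes of replicate 2. The 12 per direction also had to have every shAjuba2 sample on 1 side of both shScrambled samples. Some list members are left out for length, and CCN2, HNF4A, members named without values and the genes of genomic runs were chosen after their values were seen. Some genes that the rule names are not reported here. The comparison and the 37 gene lists were chosen with earlier results of these data known. Figures used Python 3.11.15, pandas 2.3.3 and matplotlib 3.10.9.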

Additional observations from a re-analysis of the deposited data

Results flagged for a closer look

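For 5 of the 24 genes with the largest changes, the hairpin lines lay on opposite sides of shScrambled in every sample, and the direct test between shAjuba2 and shAjuba1 passed. These were TM4SF18 (log2 difference 6.18, adjusted p = 1.40e-05 by edgeR's quasi-likelihood test), F13A1 (3.69, 6.42e-07), ADGRF1 (3.48, 3.53e-06) and ESM1 (3.00, 1.37e-05), all higher than shScrambled in shAjuba2 and lower in shAjuba1. TNC (-2.61, 7.07e-06) was lower than shScrambled in shAjuba2 and higher in shAjuba1. The 24 genes were chosen by the same shAjuba2 samples, and these p-values do not account for that choice. With 2 or 3 samples a group, no formal outlier test was run for single genes.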

How the results depend on the processing

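The count of 1713 genes moved with the samples more than with the scaling. Leaving out 1 library gave between 182 and 4983 genes. Library size alone gave 1751 genes, of which 905 were higher and 846 lower (51.7% higher, against 41.9% with TMM), DESeq2's size factors 1731, DESeq2 itself 2482, at least 10 counts in every sample 1324, counts without mitochondrial genes 1728 and Parental as the control 1800. The count was 6272 with limma voom and sample quality weights (weight 0.228 for shAjuba2 replicate 2, 0.626 to 2.73 for the others), 3210 with every gene of at least 1 count, 3672 with all 16 samples in the fit, 5219 with Parental as the control without replicate 2, 2619 with Parental, shScrambled and Control as 1 control group and 976 when genes also had to differ by 1 or more on the log2 scale. Against shAjuba1 the count of 4232 ran from 2177 to 5961 when 1 library was left out, and library size alone made 59.8% of its calls higher, against 51.7%. The cause of these shifts was not tested.

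Replicate numbers come from the labels alone. Same-numbered samples of shAjuba2 and shScrambled deviated together at r = 0.084 and 0.214 over 2 pairs, too few to tell whether they pair. With 2 shScrambled samples the values for unlike numbers are the same with the sign turned. Same-numbered samples of shAjuba2 and shAjuba1 gave r = 0.041, -0.049 and -0.044. Replicate 2 also had the largest mitochondrial share of its line in Control and Ajuba OE, and whether samples of 1 number share a batch was not tested. With the replicate number as a block, replicate 3 of shAjuba2 has no partner. This block gave 5377 genes, 4273 on all 16 samples and 2937 against shAjuba1, and AJUBA read -0.40 with the block and -0.45 with the block on all 16 samples, both past the threshold.

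AJUBA kept its sign in every alternative run and passed in 8. Beside the blocks these were the fits without replicate 2 (-0.55), with voom (-0.52), with all 16 samples (-0.45), with Parental (-0.60), with Parental without replicate 2 (-0.69) and with the 3 control lines as 1 group (-0.56). Leaving out 1 library gave -0.38 to -0.55.

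Among the 91 named genes called with all 5 samples, signs turned only where another control replaced or joined shScrambled. Values of some named genes that were not called are given as well, and this statement does not cover uncalled genes. Against Parental, Parental without replicate 2 and the 3 control lines together, the log2 fold changes were -0.50, -0.20 and -0.070 for ARPC3, -0.85, -0.55 and -0.20 for COX7C, -0.48, -0.18 and -0.24 for H1-2, -0.46, -0.36 and -0.19 for H2AC6 and -0.27, -0.17 and -0.092 for H2BC11. Against Parental with and without replicate 2 they were 0.15 and 0.10 for MLPH, 0.011 and 0.060 for OAS1, -0.83 and -0.53 for TNNC1, -0.37 and -0.15 for TPD52L1, -0.33 and -0.35 for PSG11, -0.43 and -0.35 for PSG2, -0.41 and -0.33 for PSG5 and -0.039 and -0.014 for PSG4. ELOVL6 read 0.024 against Parental without replicate 2. Of the 91 named genes called with all 5 samples, 39 stayed past the threshold without shScrambled replicate 1, 34 without shScrambled replicate 2, 50 without shAjuba2 replicate 1, 76 without shAjuba2 replicate 3 and 54 against Parental, while 83 or more did under each other scaling, filter or test.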
